A study of Mus musculus with 6 samples.

Results

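Inflammatory chemokines were followed in Ink4a/Arf -/- murine astrocytes with and without forced expression of JAG1, a membrane-bound Notch ligand. The members were 10 genes chosen by name, Ccl2, Ccl5, Ccl7, Ccl20, Cxcl1, Cxcl2, Cxcl5, Cxcl10, Cxcl16 and Cx3cl1, and each was found on 1 of the 23282 gene rows of every table. The control group held 3 libraries of cells that had received the empty plasmid pcDNA3.1-puro, and the JAG1 group held 3 libraries of cells that had received pcDNA3.1-JAG1-puro. All cells carried the Ink4a/Arf -/- background named in the paper, given as Ink4a -/- in the labels, which removes a tumor suppressor locus. The genotype that the labels give as WT for the controls was read as the absence of the JAG1 plasmid. Neither the age nor the strain of the donor mice is given, and the sources used here do not say whether separate transfections stood behind the libraries of a group, and p-values therefore measure the spread between these libraries, which may be technical. The libraries were made with the QuantSeq 3' method, which places reads at the end of a polyadenylated transcript, so that a read count does not grow with transcript length and levels of different genes can be set side by side without a correction for length. The control libraries held 20489062, 18889751 and 18952552 counted reads and the JAG1 libraries 20071276, 14341634 and 16442278.

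Chemokines are small secreted proteins that guide leukocytes along a concentration gradient through receptors coupled to G proteins. They are named by the spacing of their first cysteines as CC, CXC and CX3C chemokines. In the brain, astrocytes are a known source of CCL2 and of CXCL1 after injury or cytokine exposure, and NF-κB and interferon regulatory factors are the best known activators of these genes.

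The unit of level is CPM, a read count scaled to the size of its library after TMM normalization, which corrects library sizes for differences in composition. The limit taken for detection was 3 reads in a library, which amounts to 0.148 CPM in the deepest and 0.206 CPM in the shallowest library and, like all intervals on reads given here, covers counting error only. Above that limit, 7 of the 10 chemokines were found in every control library and 7 in every JAG1 library. These were not the same genes: Cxcl10 and Cxcl2 were over the limit in all control libraries and missed it in at least 1 JAG1 library, whereas Ccl20 and Cxcl5 were over it in all JAG1 libraries and not in all control libraries. Of the 10, 7 passed the filter on low counts and were tested, and Cxcl5 passed it through the JAG1 libraries alone.

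Among the 10 members, the transcripts came almost entirely from 4 genes. Ccl2 was the most abundant member, at 175 ± 53.5 CPM in control and 121 ± 10.95 CPM in JAG1 astrocytes (mean ± SD of 3 libraries). In control astrocytes it was followed by Ccl7, Cxcl1 and Cx3cl1, and all the other members had at most 2.02 CPM in any control library. In JAG1 astrocytes Ccl7 left this leading group, and Cxcl5 went from nearly no reads to the level of the minor members. Cxcl1 and Cx3cl1 lay within each other's spread in JAG1 astrocytes, and so did Cxcl16, Cxcl2 and Ccl20 at the lower end, with Cxcl10 and Ccl5 lowest.

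**Figure D1:**
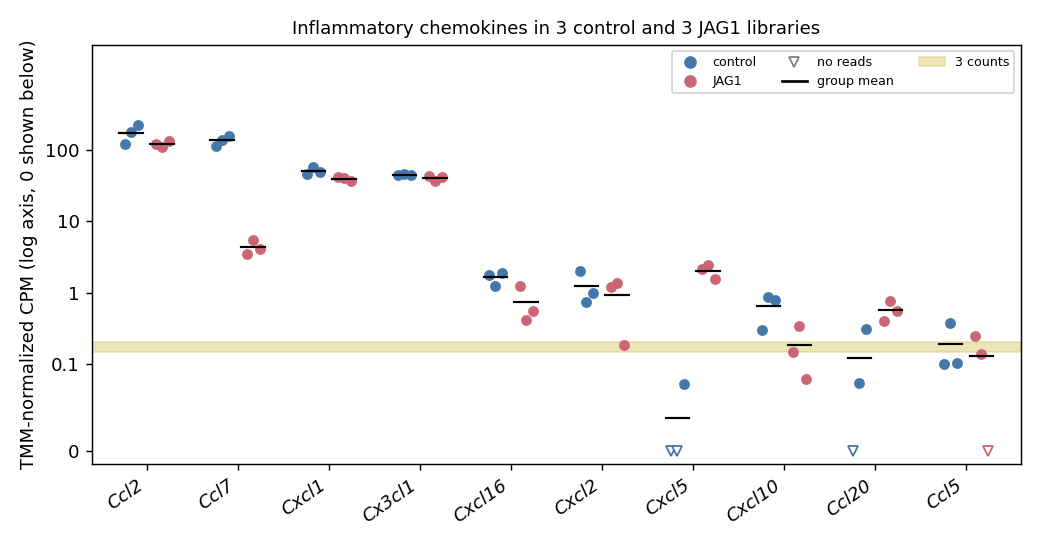
TMM-normalized CPM (log axis) of the 10 chemokines in order of their mean, with 1 point for each of the 3 control (blue) and 3 JAG1 (red) libraries, a bar for the group mean, open triangles for libraries without reads and a band for the level of 3 counts. Ccl7 dropped out of the upper group of genes in the JAG1 libraries, and Cxcl5 appeared in them.

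Of the 7 tested chemokines, 4 were lower and 1 was higher in JAG1 astrocytes at an adjusted p under 0.05 in edgeR's quasi-likelihood test. The background was high, since 27.7% of the 11712 tested genes were lower and 27.4% were higher by the same rule, 55.1% in all. The higher gene was Cxcl5. Without control replicate 3, 2 chemokines were lower and 2 were higher. With a limit of 2-fold added, 2 chemokines were lower and 1 was higher, beside 8.49% and 5.46% of all tested genes. The median log2 fold change over all tested genes was 0.004.

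Ccl7, which encodes MCP-3, a CC chemokine that attracts monocytes through CCR2, showed the largest fall. It had 113, 138 and 158 CPM in the control libraries and 3.44, 5.50 and 4.07 CPM in the JAG1 libraries. The groups were far apart, and the highest JAG1 library held 80 reads where the lowest control library held 2294. The log2 fold change was −5.00 (standard error 0.16, adjusted p = 1.08e-09 by edgeR), or 31.9-fold lower. Ordered by log2 fold change, this was place 115 from the lowest of the 11712 tested genes, and the fits that lack 1 library gave values between −5.19 and −4.84.

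Ccl2, which encodes MCP-1, the main CCR2 ligand, is the neighbour of Ccl7 on chromosome 11. Ccl2 lies at chr11:82035577-82037452 and Ccl7 at chr11:82045712-82047525 in GRCm38, with 8259 bases between them. Ccl2 had 120, 178 and 227 CPM in the control libraries and 120, 111 and 133 CPM in the JAG1 libraries. The groups overlapped, since control replicate 1 lay within the JAG1 range and control replicate 3 stood highest. The log2 fold change was −0.53 (standard error 0.17, adjusted p = 0.0230 by edgeR). The adjusted p was 0.0777 with DESeq2. Without control replicate 3 the log2 fold change was −0.30 and the adjusted p 0.0594, and without control replicate 2, JAG1 replicate 1 or JAG1 replicate 2 the adjusted p was 0.0617, 0.0686 or 0.0962.

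The proportion of the 2 transcripts within a library does not depend on normalization. In control libraries there were 1.06, 1.29 and 1.44 reads of Ccl2 for each read of Ccl7, and in JAG1 libraries 34.9, 20.1 and 32.6. The groups were far apart in this proportion as well. No stretch of 31 bases was shared between the transcripts of Ccl2 or Ccl7 and those of any other gene of GENCODE M21.

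**Figure D2:**
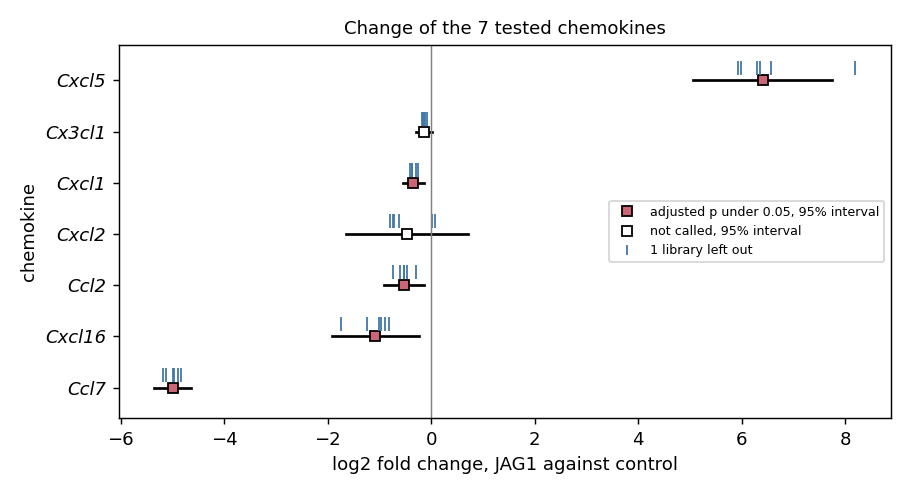
Log2 fold change of the 7 tested chemokines, JAG1 against control, with 95% intervals from edgeR (red squares past an adjusted p of 0.05, white squares not) and blue ticks for the values with 1 library left out. Ccl7 and Cxcl5 stood apart from the other 5, and the fitted value of Cxcl5 rests on a single control read.

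The CXC chemokines with the ELR motif, CXCL1, CXCL2 and CXCL5, attract neutrophils through CXCR2. Their genes lie in 1 cluster on chromosome 5 and did not move together. Cxcl1 had 45.7, 57.3 and 49.0 CPM in control libraries and 41.8, 41.1 and 36.6 CPM in JAG1 libraries. Every JAG1 library lay below every control library, by a small margin. The log2 fold change was −0.35 (standard error 0.09, adjusted p = 0.00792 by edgeR), and it was past the threshold with each library left out.

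Cxcl5 had 0, 0 and 1 reads in the control libraries and 43, 35 and 26 reads in the JAG1 libraries, which equals 2.14, 2.41 and 1.58 CPM in the latter. It thus went from below the limit of detection to clear but low levels in all 3 JAG1 libraries. The ratio of the pooled CPM was 118, with an exact 95% counting interval from 20.7 to 4710, and the adjusted p in edgeR's quasi-likelihood test was 5.07e-06. Since the gene was tested only because of its JAG1 reads, this call adds nothing to the reads themselves.

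Cxcl2 had 41, 14 and 19 reads in the control libraries and 24, 20 and 3 in the JAG1 libraries. The groups overlapped, and replicate 3 of JAG1 was lowest. The log2 fold change was −0.46 with a 95% interval from −1.64 to 0.72 (adjusted p = 0.488 by edgeR), and neither a fall nor a rise could be told from no change at this depth. Cxcl2 shares 7.59% of the 31-base stretches of its transcripts with Cxcl3, and reads there could have been assigned to either gene.

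Since Cxcl3, the fourth member of this neutrophil group, lies between Cxcl5 and Cxcl1, it is described here although it was chosen as one of the other chemokine ligands. It had no reads in the control libraries and 57, 46 and 64 reads in the JAG1 libraries. Against a limit of 3 reads per control library it was at least 21.2-fold higher. Like Cxcl5, it passed the filter on low counts through the JAG1 libraries alone, so that its edgeR call (adjusted p = 2.66e-06) adds nothing to these reads. Cxcl3 and Cxcl5 thus appeared in the JAG1 libraries, while Cxcl1 fell slightly. Cxcl3 shares 5.46% of the 31-base stretches of its transcripts with other genes, Cxcl2 foremost, and reads there could have come from those genes.

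**Figure D3:**
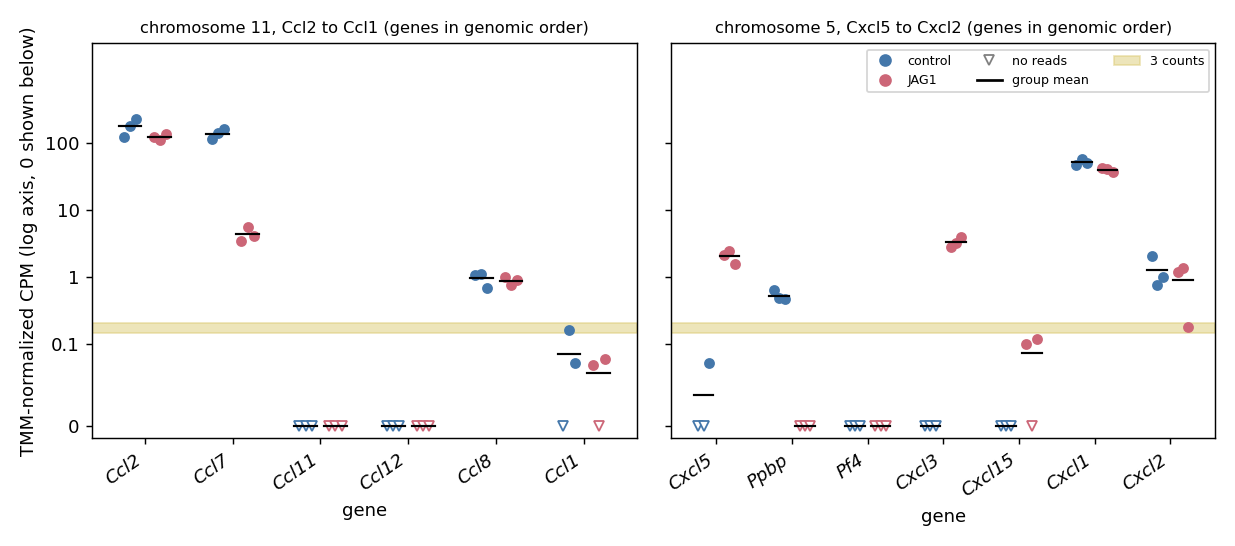
TMM-normalized CPM (log axis) of the chemokine genes of the cluster on chromosome 11 from Ccl2 to Ccl1 (left) and on chromosome 5 from Cxcl5 to Cxcl2 (right), drawn in genomic order without distances, with 1 point per library, a bar for the group mean and a band for the level of 3 counts. On chromosome 11 Ccl7 was far lower in the JAG1 libraries while the groups overlapped for Ccl2, and on chromosome 5 Cxcl5 and Cxcl3 were higher while Cxcl1 was slightly lower.

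Other genes of the 2 clusters, named after their values were seen, had few reads or none. Ppbp, a platelet chemokine gene next to Cxcl5, had 13, 9 and 9 reads in the control libraries and 0 in each JAG1 library, and it was not tested. Pf4 had no reads in any library, and neither had Ccl11 and Ccl12 of the chromosome 11 cluster. Ccl8 had between 11 and 22 reads in each library and a log2 fold change of −0.10 (adjusted p = 0.798 by edgeR).

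RefSeq promoter sequences were matched for 5 of the 10 members, Ccl20, Cxcl1, Cxcl2, Cxcl10 and Cx3cl1, and for Cxcl3. The 250 bases before the start of Cxcl1, Cxcl2 and Cxcl3 are shown because these neighbours differed in level. They are read 5′ to 3′ on the plus strand of GRCm38.p6, from chr5:90890995-90891244 for Cxcl1, chr5:90903649-90903898 for Cxcl2 and chr5:90785851-90786100 for Cxcl3. Capitals mark matches to a form of the NF-κB motif, GGG, any 3 bases and TTCC, on either strand, where overlapping matches on both strands run together.
Cxcl1: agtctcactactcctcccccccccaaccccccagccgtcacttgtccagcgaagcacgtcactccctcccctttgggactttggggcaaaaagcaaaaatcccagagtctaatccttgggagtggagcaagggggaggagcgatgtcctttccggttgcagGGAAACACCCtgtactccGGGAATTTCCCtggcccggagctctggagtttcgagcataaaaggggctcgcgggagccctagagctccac
Cxcl2: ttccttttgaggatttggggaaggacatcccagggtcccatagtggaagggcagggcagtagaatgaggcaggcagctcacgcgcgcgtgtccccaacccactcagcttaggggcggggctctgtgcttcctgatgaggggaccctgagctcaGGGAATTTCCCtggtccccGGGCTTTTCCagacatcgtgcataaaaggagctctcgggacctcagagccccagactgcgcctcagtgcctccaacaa
Cxcl3: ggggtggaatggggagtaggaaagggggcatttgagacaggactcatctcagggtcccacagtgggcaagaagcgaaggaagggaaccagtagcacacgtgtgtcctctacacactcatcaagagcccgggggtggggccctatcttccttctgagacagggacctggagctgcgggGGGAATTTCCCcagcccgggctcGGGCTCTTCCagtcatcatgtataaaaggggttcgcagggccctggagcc

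All 3 windows held the same 10 bases, GGGAATTTCC, starting 71 bases before the start in Cxcl1, 97 in Cxcl2 and 73 in Cxcl3. A second, separate match lay at −89 in Cxcl1, at −78 in Cxcl2 and at −50 in Cxcl3. The motif was also found once in the window of Ccl20 and at 2 positions in that of Cxcl10, and not in that of Cx3cl1. Among all 32851 RefSeq promoter windows of 300 bases, 5.56% held it. Cxcl10 alone of the 5 members held GAAA, any 2 bases and GAAA on either strand, the core of the interferon-stimulated response element, which 3.44% of all windows held. A match is a description of the sequence and not evidence of binding.

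Cx3cl1 and Cxcl16 encode the chemokines that are made as transmembrane proteins and released by shedding. Cx3cl1, or fractalkine, the ligand of the microglial receptor CX3CR1, had 43.9, 46.0 and 45.1 CPM in control and 43.0, 37.4 and 42.3 CPM in JAG1 libraries. The JAG1 libraries lay just below the control libraries. The log2 fold change was −0.14 with a 95% interval from −0.30 to 0.02 (adjusted p = 0.135 by edgeR).

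Cxcl16, the ligand of CXCR6, had 36, 23 and 36 reads in control and 25, 6 and 9 reads in JAG1 libraries, with replicate 1 of JAG1 inside the control range in CPM. Its log2 fold change was −1.08 (standard error 0.38, adjusted p = 0.0321 by edgeR). The call was lost with 4 of the 6 libraries left out, the adjusted p being highest, at 0.115, without replicate 3 of JAG1, and the log2 fold change was −1.74 without replicate 1 of JAG1. Of the 5 tested genes on the list of proteins that shed these chemokines or control the shedding, 1 was higher, beside 27.4% of all tested genes. This was Adam10, a sheddase of both, which rose by a log2 fold change of 0.35 (adjusted p = 0.00353 by edgeR). The other 4, Adam17 among them, were not past the threshold, although Adam17 was without control replicate 1 (adjusted p = 0.0491 by edgeR).

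The remaining members had at most 16 reads in any library. Ccl20, the CCR6 ligand, had 0, 1 and 6 reads in control and 8, 11 and 9 reads in JAG1 libraries, and every JAG1 library lay above every control library in CPM (two-sided exact permutation p = 0.1, the smallest that 3 libraries against 3 allow). Cxcl10, an interferon-induced ligand of CXCR3, had 6, 16 and 15 reads in control and 3, 5 and 1 in JAG1 libraries, with overlap between the groups in CPM (two-sided exact permutation p = 0.2). Ccl5, or RANTES, had 2, 7 and 2 reads in control and 5, 2 and 0 in JAG1 libraries (two-sided exact permutation p = 0.7). These 3 genes failed the filter on low counts, and without it Ccl20 was higher and Cxcl10 lower at an adjusted p of 0.0201 and 0.0232 in edgeR's test. With 1 library left out, Ccl20 passed the filter in 4 fits and the threshold in 2 of them, and so did Cxcl10, with an adjusted p of up to 0.105 for Ccl20 and 0.109 for Cxcl10.

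Across the 7 tested members, the groups did not overlap for Ccl7, Cxcl1 and Cx3cl1, which were lower, and for Cxcl5, which was higher. Among all tested genes, 62.0% did not overlap between the groups.

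Summed over all 10 genes, chemokine transcripts amounted to 327, 422 and 483 CPM in the control libraries and to 214, 200 and 218 CPM in the JAG1 libraries. All JAG1 sums lay below the control sums, and the control libraries differed more among themselves than the JAG1 libraries did. Without Ccl7, the sums were 214, 284 and 325 CPM in control and 210, 195 and 214 CPM in JAG1 libraries, so that control replicate 1 was then level with the JAG1 libraries.

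The makeup of these reads differed in the same way in all libraries of a group. Ccl7 took 34.6% of the chemokine reads in control replicate 1 (Wilson 95% interval 33.5% to 35.8%), 32.7% in replicate 2 and 32.7% in replicate 3. In the JAG1 libraries it took 1.61%, 2.75% and 1.86%, the highest of these with an interval from 2.22% to 3.41%. Ccl2 took between 36.7% and 47.0% of the reads in control and between 55.3% and 60.7% in JAG1 libraries. A share depends on the other members, and here the Ccl7 reads left the sum. The larger share of Ccl2 was not a rise in level, since its mean was 175 CPM in control and 121 CPM in JAG1 libraries.

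**Figure D4:**
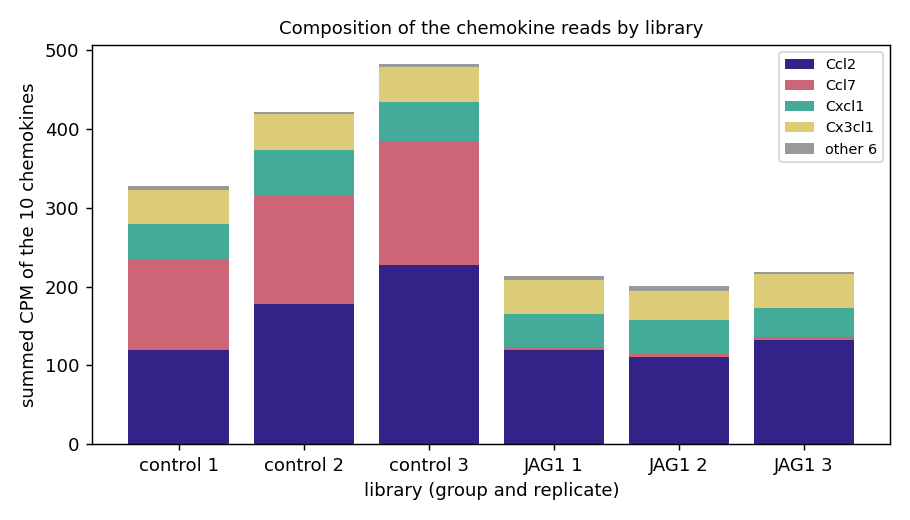
Summed CPM of the 10 chemokines in each library, stacked by gene, with the 6 least abundant joined. The Ccl7 segment nearly vanished in the JAG1 libraries, while the segments of Cxcl1 and Cx3cl1 differed far less, and Ccl2 varied most among the control libraries.

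The 3 genes outside the members whose profile over the 6 libraries was nearest to that of Ccl2, by the root mean square difference of centred log2 CPM, were Gja1 (0.102), Ttc8 (0.110) and Taf2 (0.117). Gja1, which encodes the gap junction protein connexin 43 of astrocytes, had 116, 149 and 188 CPM in control and 99.3, 87.0 and 104 CPM in JAG1 libraries, with control replicate 3 highest as for Ccl2.

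Of the 28 other chemokine ligands, 14 were at 3 reads or fewer in every library and 9 were tested, 2 of them higher and 3 lower, beside 27.4% and 27.7% of all tested genes. Cxcl12, a homeostatic chemokine, was the most abundant of all ligands in control astrocytes, with 295 ± 10.9 CPM (SD, n = 3), and had 16, 10 and 0 reads in the JAG1 libraries. Ccl9, a CC chemokine of rodents that binds CCR1, fell by 1.95 on the log2 scale (adjusted p = 8.84e-06), and Ccl25, the CCR9 ligand, fell by 0.56 (adjusted p = 0.00124). Ccl17, a CCR4 ligand, rose from 8, 21 and 14 reads to 44, 40 and 34 reads (log2 fold change 1.63, adjusted p = 0.00156), and Cxcl3 was the other gene that rose. Ccl3, Ccl4, Ccl8 and Ccl27a, of which Ccl27a shares 57.0% of its 31-base stretches with other genes, had log2 fold changes between −0.16 and 0.26 and were not past the threshold in the same quasi-likelihood test, although Ccl27a was (adjusted p = 0.00219) without control replicate 1.

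Of 23 chemokine receptors, 15 were at 3 reads or fewer in every library, among them Ccr2, the receptor of CCL2 and CCL7, with 0 reads in each library. Of the 4 tested receptor genes, 2 were higher and 2 were lower, where 55.1% of all tested genes were past the threshold. Cxcr2, the receptor of CXCL1, CXCL2, CXCL3 and CXCL5, rose from 2.90 ± 0.0327 to 4.47 ± 0.508 CPM (SD, n = 3 per group; adjusted p = 0.00696 from edgeR). Cx3cr1, the receptor of CX3CL1, had 10, 17 and 14 reads in control and 23, 19 and 22 in JAG1 libraries (adjusted p = 0.0449 from edgeR), a call that 9 of 14 alternatives did not keep. Ackr3, a scavenging receptor of CXCL12, fell by 3.25 on the log2 scale, and Cxcr5, the CXCL13 receptor, by 0.76. Whether the authors counted reads by strand is not given in the sources used here, so that reads of an overlapping antisense gene cannot be told apart.

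Genes of the pathways around the chemokines were counted in 10 lists. Of their 116 tested genes, 28 were higher and 41 were lower, beside the 27.4% higher and 27.7% lower among all tested genes, and no list was tested against the other genes. In resting cells NF-κB is held in the cytoplasm by inhibitors such as IκBα, and signals from the receptors of IL-1 and TNF and from Toll-like receptors release it through the IKK kinases. The lists that follow were chosen with earlier results of these data known. Of 11 tested genes for NF-κB subunits and kinases, 4 were higher and 1 was lower. Chuk, which encodes IKKα, rose from 25.1 ± 2.65 to 46.2 ± 2.31 CPM (SD, n = 3 per group; adjusted p = 7.48e-06 from edgeR), and Nfkb2 from 23.3 ± 0.872 to 42.6 ± 1.21 CPM (adjusted p = 1.48e-06 from edgeR). Map3k14, the gene of the kinase NIK that acts on IKKα, fell by 1.41 on the log2 scale.

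Of 14 tested genes for inhibitors and feedback regulators of NF-κB, 6 were lower and 2 higher, beside 27.7% and 27.4% of all tested genes. Nfkbia, which encodes IκBα and is itself an NF-κB target, fell from 214 ± 6.05 to 116 ± 8.05 CPM (SD, n = 3 per group; adjusted p = 3.36e-07 from edgeR). Nfkbiz, a nuclear IκB protein gene, fell by 0.88 on the log2 scale. The deubiquitinase genes Tnfaip3 and Cyld rose by a log2 fold change of 1.05 and 0.34.

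Of 12 tested genes on a list of other NF-κB targets, 7 were higher and 4 were lower. Among all tested genes, 27.4% were higher and 27.7% lower. Cebpb, a transcription factor gene of the acute phase response, and Cd44, a hyaluronan receptor gene, had the largest rises, with log2 fold changes of 0.88 and 0.71. The largest falls were those of the protease genes Mmp9, from 57, 56 and 58 reads to 2, 0 and 1, and Plau, which fell by 2.84 on the log2 scale. Mmp9 passed the filter on low counts through the control libraries alone, so that its call adds nothing to these reads. Icam1 and Nos2, targets that cytokines strongly induce, had at most 1 read in a library, and so had Il1a. Il6 had at most 2. Such silence did not hold for the whole list of 21 targets, of which 4 were at 3 reads or fewer in every library. Another 11 were above 3 reads in every library, led by Sod2 with a mean of 148 CPM in control and 209 CPM in JAG1 libraries. Il1b had 29, 22 and 15 reads in control and 23, 16 and 6 in JAG1 libraries.

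Among cytokines and their receptors, 2 of 18 tested genes were higher and 8 were lower. For this list and the next 2, the shares over all tested genes were 27.4% higher and 27.7% lower. The inflammasome cytokine gene Il18 fell by 2.12 and Tnfrsf1b, the gene of TNF receptor 2, by 1.70 on the log2 scale, and Il1rap and Ifngr1, receptor chains for IL-1 and interferon gamma, rose by 0.71 and 0.35. Of 22 tested genes for pattern recognition receptors and adaptors, 5 were higher and 10 were lower, with Tlr4 and Irak1 rising by 0.75 and 0.36 and Irak4 and Traf1 falling by 1.18 and 0.89 on the log2 scale. Of 10 tested STAT and IRF genes, 1 was higher and 2 were lower. Irf1, a factor that activates Cxcl10 and other interferon-induced genes, fell from 90.2 ± 4.41 to 29.8 ± 1.06 CPM (SD, n = 3 per group; adjusted p = 6.64e-09 from edgeR), and Stat3 rose by a log2 fold change of 0.88.

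Chemokine transcripts are short-lived, and proteins that bind their ends control their decay. Of 11 tested regulators of mRNA decay, 2 were higher and 5 were lower, beside 27.4% and 27.7% of all tested genes. Elavl1, the gene of the stabilizing protein HuR, and Cnot7, a deadenylase gene, rose by 0.33 and 0.24 on the log2 scale. Arid5a, a stabilizer of cytokine transcripts, fell by 1.88 and Rc3h2, the gene of Roquin-2, by 0.82.

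**Figure D5:**
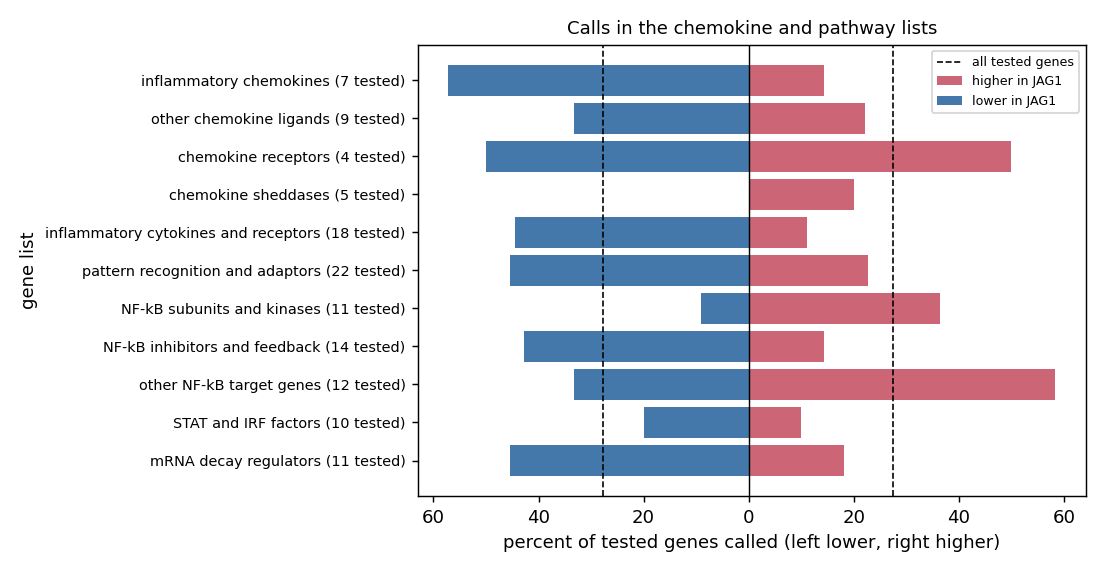
Percent of the tested genes of each list that were lower (left, blue) or higher (right, red) in JAG1 than in control astrocytes at an adjusted p under 0.05, with dashed lines for all 11712 tested genes. The lists are small, between 4 and 22 tested genes, and no test of a list against the other genes was made.

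The label astrocyte was checked against marker genes. Of 14 astrocyte markers, 5 were at 3 reads or fewer in every library, with Gfap and Aqp4 at 0 throughout, while Gja1, Sox9, Vim and Nes were present. Of the 9 tested, 7 were lower and 1 was higher, beside 27.7% and 27.4% of all tested genes, Sox9 falling from 181 ± 4.64 to 18.0 ± 1.25 CPM and Nfia rising from 3.12 ± 0.693 to 63.9 ± 3.44 CPM (SD, n = 3 per group; adjusted p = 5.31e-11 and 4.27e-10 from edgeR). The list summed to 3297, 3603 and 3784 CPM in control and 3425, 3487 and 3454 CPM in JAG1 libraries, mostly Vim. In bulk libraries, fewer cells of a type and less RNA per cell cannot be told apart.

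Microglia and macrophages, which make many chemokines, left few reads. Their 15 markers summed to 6.37, 6.50 and 6.12 CPM in control and 4.69, 4.89 and 3.64 CPM in JAG1 libraries, and 8 of them, among them Aif1, Itgam and the 3 C1q genes, were at or under 3 reads in every library. The most abundant was Cd68. Of the 3 tested, 1 was higher, the receptor gene Cx3cr1 described above, 1 was lower and Cd68 was not past the threshold. Among all tested genes, 55.1% were past it. The lower one, Tmem119, had 48, 48 and 34 reads in control and 1, 2 and 2 in JAG1 libraries, and its part in the result was not tested. Tmem119 passed the filter on low counts through the control libraries alone, so that its call adds nothing to these reads.

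Of 10 fibroblast and pericyte markers, 7 were tested, 5 of them lower and 1 higher, beside 27.7% and 27.4% of all tested genes, and the sum was 821, 831 and 857 CPM in control and 355, 364 and 317 CPM in JAG1 libraries. Col1a1 had the highest mean over all libraries, Acta2, which led the list in control astrocytes, fell from 310 ± 6.25 to 39.5 ± 2.49 CPM (SD, n = 3 per group; adjusted p = 5.31e-11 from edgeR), and Lum, Cspg4 and Rgs5 were at 0 throughout. Fibroblasts and pericytes also make Ccl2, Ccl7 and Cxcl12, and the part of these markers in the chemokine result was not tested. Endothelial markers summed to between 2.27 and 3.81 CPM in control and between 5.71 and 6.20 CPM in JAG1 libraries, led by Esam in control and by Flt1 in JAG1 astrocytes, with Tek, Tie1, Vwf and Emcn at 0. Neuron markers summed to between 106 and 115 CPM in control and between 63.1 and 66.3 CPM in JAG1 libraries, with Snap25, Syt1 and Gad1 at 0. Tubb3 led this list in control astrocytes and fell from 78.2 ± 4.67 to 8.40 ± 0.55 CPM, whereas Map2, which led it in JAG1 astrocytes, rose from 25.1 ± 1.07 to 51.3 ± 1.13 CPM (SD, n = 3 per group; adjusted p = 2.78e-10 and 2.78e-07 from edgeR). Oligodendrocyte markers summed to 3.21, 3.27 and 2.14 CPM in control and 1.196, 1.10 and 0.668 CPM in JAG1 libraries, with Mog, Mag, Olig1 and Sox10 at 0. Of 2 tested genes, 1 was lower, beside 27.7% of all tested genes. This was the leading gene Cnp (log2 fold change −2.11, adjusted p = 0.000123 from edgeR). Cnp averaged 1.97 CPM in control and 0.445 CPM in JAG1 libraries. At that level it could not pass the filter on low counts through the JAG1 libraries alone, so that its call adds nothing to these levels.

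As a check of the labels, Jag1 itself had 182, 201 and 214 reads in control and 304, 197 and 227 in JAG1 libraries, and in CPM every JAG1 library lay above every control library. The log2 fold change was 0.46 (standard error 0.11, adjusted p = 0.00446 by edgeR). The check is a weak one, since 27.4% of all tested genes were higher by the same rule. For 31.1% of them every JAG1 library lay above every control library. Whether reads of the plasmid were counted on this row is not given in the sources used here. If they were, they cannot be told apart from those of the chromosomal gene.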

How the data were processed

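RNA of 6 libraries was measured by QuantSeq 3' sequencing. The authors deposited raw read counts per gene symbol, and log2 values of a read count that the authors normalized by a method not given in the sources used here. The submitters' processing notes name Bowtie2, bedtools, edgeR and the builds GRCm38 and mm10. Symbols were matched to RefSeq of GRCm38.p6, 22059 by symbol and 1071 by synonym. Coordinates and promoter windows, 250 bases before to 50 after a start, come from RefSeq. For repeated symbols the row with the most reads was used.

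The analysis used edgeR 4.0.16 in R 4.3.3. Of all rows, 11712 passed filterByExpr (minimum count 10) and entered TMM normalization and the quasi-likelihood test, with Benjamini-Hochberg adjustment over all tested genes and a threshold of 0.05. CPM use the TMM-adjusted library sizes. The fit was also run on simulated counts in which far fewer genes changed than were called here. That run therefore cannot show how the fit behaves when so many genes differ. Members, gene lists and tests were chosen with earlier results of these data known. Named are all members, Jag1, every tested chemokine ligand and receptor, for each other pathway list the 2 strongest rises and the 2 strongest falls among called genes averaging 1 CPM or more, the 3 genes nearest in profile to the most abundant member, and, per marker list, the most abundant gene and those that show whether the cell type is present. Icam1, Nos2, Sod2, Il1a, Il1b, Il6, Adam17, Ppbp, Pf4, Ccl11, Ccl12 and Ccr2 were added after their values were seen. Alternatives were DESeq2 1.42.0, limma-voom (limma 3.58.1), the authors' log2 values with limma, library size alone, upper quartile, no filter, a filter at 10 mean counts, the replicate number as a block, a 2-fold limit and leaving out each library.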

Additional observations from a re-analysis of the deposited data

How the results depend on the processing

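Ccl7 and Cxcl1 kept their direction and their side of the threshold under all 14 alternatives each, with an adjusted p of at most 2.08e-07 and 0.0441. Cxcl5 did too, but it was tested only through its JAG1 reads. Ccl2 did so under 9 of 14, with log2 fold changes between −0.74 and −0.30, and Cxcl16 under 10 of 14, between −1.74 and −0.82. Without the filter on low counts, 2 chemokines were higher (Ccl20 beside Cxcl5), and with 1 library left out the number of higher chemokines was between 1 and 2 and that of lower chemokines between 2 and 4. With a 2-fold limit, 2 chemokines were lower, 639 of all tested genes were higher and 994 lower, and of the 116 tested genes of the pathway lists 3 were higher and 16 lower. Cxcl2, not past the threshold, had log2 fold changes between −0.80 and 0.07 with 1 library left out, at 0.0712 without control replicate 1 and 0.0121 without replicate 3 of JAG1. Ccl3, Ccl4, Ccl8, Vim and Cd68, also not past the threshold, changed sign, with ranges over the left-out libraries of −0.517 to 0.334, −1.07 to 0.322, −0.306 to 0.0161, −0.00614 to 0.0894 and −0.367 to 0.00833. Ccl3 was also at −0.0326 with the replicate block, −0.0878 with limma-voom and −0.135 with the authors' log2 values. In the fit with the replicate number as a block, 1 chemokine was higher and 4 were lower, beside 3380 and 3331 of all tested genes, and no call on a member changed. The block took Cx3cr1 to an adjusted p of 0.0507 and Ccl27a to 0.0412, and Ccl27a was also past the threshold without the filter (0.0372) and without control replicate 1 (0.00219). Deviations of same-numbered control and JAG1 libraries from their group means correlated at 0.148, 0.0614 and 0.119 across genes, each library best with its own number, which is a hint from the data and not the design. Counts in single pathway lists moved by over 1.5 times in 34 of 300 cases. With 1 library left out, the higher pattern recognition and adaptor genes fell from 5 to as few as 3. The lower cytokine and receptor genes fell from 8 to as few as 5, the lower mRNA decay regulators from 5 to as few as 3, and the higher chemokine receptors from 2 to 1. Without control replicate 1, the higher sheddase genes, the higher STAT and IRF genes and the lower NF-κB subunit and kinase genes each went from 1 to 2. Depth limits Ccl5, Ccl20 and Cxcl10, whose reads per library did not exceed 16.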
